A study of Mus musculus with 4 samples.

Results

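The MHC class II genes and the invariant chain were followed across the T cells, and the Siglech or C1q positive cells beside them, recovered from B16 melanoma, as 7 genes of the 32285 in the count tables: H2-Aa, H2-Ab1, H2-Eb1, H2-DMa, H2-DMb1, Cd74 and Ciita. They were chosen by symbol and not by a measured value, though with earlier results of these data known, and all 7 had reads in both libraries. Cells came from tumors of C57BL/6 mice of both sexes, inoculated with B16bl6 at 6 to 8 weeks of age, given a TRP2 peptide vaccine with CpG and R848 on day 3 and anti-CTLA-4 on days 4 and 8, and taken 18 days after treatment. The WT mice were Vsir fl/fl littermates without Cre and the VISTA-KO mice were Vsir fl/fl CD4-Cre, in which the Cre acts in T cells and both genotypes carry the floxed alleles and received the same treatment. T cells were enriched with beads for CD4 and CD8a and then sorted by flow cytometry, so myeloid and dendritic cells were not meant to be in the libraries. VISTA, encoded by Vsir, is an inhibitory receptor of T cells and myeloid cells. Tumors of several mice were pooled into 1 gene expression library per genotype (the methods give 5 to 6 mice and a legend 6 to 8 tumors), so there was no replicate of either genotype, no test between genotypes was possible, and each difference given here is between these libraries. Intervals are exact at 95% and cover counting error only.

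MHC class II molecules display peptides from engulfed material to CD4+ T cells. An alpha chain (H2-Aa) and a beta chain (H2-Ab1) form I-A, and H2-Eb1 encodes the beta chain of I-E, whose alpha chain mice of the H-2b haplotype do not make. The invariant chain, Cd74, fills the groove of new molecules, and H2-DM, a dimer of H2-DMa and H2-DMb1, later exchanges the remaining invariant chain fragment for peptide. Ciita is the transcriptional coactivator that acts on the promoters of these genes through an enhanceosome bound to conserved X and Y boxes. Dendritic cells, macrophages and B cells express the pathway at high levels, whereas mouse T cells are generally held not to transcribe class II chains, so that class II UMIs in a T cell library raise the matter of RNA from other cells.

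In the RefSeq annotation of GRCm38, Ciita (ENSMUSG00000022504) lies on chromosome 16 from 10480014 to 10531064. The other members placed here share chromosome 17: H2-DMa (ENSMUSG00000037649) from 34119693 to 34139101, H2-DMb1 (ENSMUSG00000079547) from 34153191 to 34160229, H2-Ab1 (ENSMUSG00000073421) from 34263227 to 34269418, H2-Aa (ENSMUSG00000036594) from 34282744 to 34287823 and H2-Eb1 (ENSMUSG00000060586) from 34305867 to 34316674. The span of H2-DMa overlaps that of Brd2, and the span of Ciita overlaps that of Dexi, while H2-DMb1 has a near-identical neighbour, H2-DMb2, with which reads can be shared. Counts of these genes are therefore less certain than those of the chains.

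A shared promoter layout links 3 of the members. Their 150 bases upstream of the start site, from RefSeq on GRCm38.p6, are shown because they carry the boxes through which Ciita acts, and capitals mark the X box (searched as CTNGNAAC) followed by the Y box (searched as TGATTGG). H2-Aa is at chr17:34287824-34287973 on the minus strand, H2-Eb1 at chr17:34305717-34305866 on the plus strand, and H2-DMb1 at chr17:34153041-34153190 on the plus strand:
H2-Aa: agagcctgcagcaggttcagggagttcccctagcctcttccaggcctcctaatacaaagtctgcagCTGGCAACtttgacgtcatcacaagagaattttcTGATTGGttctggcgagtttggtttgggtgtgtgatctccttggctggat
H2-Eb1: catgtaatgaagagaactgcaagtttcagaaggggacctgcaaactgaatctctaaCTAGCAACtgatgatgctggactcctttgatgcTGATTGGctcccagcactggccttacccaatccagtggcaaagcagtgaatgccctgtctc
H2-DMb1: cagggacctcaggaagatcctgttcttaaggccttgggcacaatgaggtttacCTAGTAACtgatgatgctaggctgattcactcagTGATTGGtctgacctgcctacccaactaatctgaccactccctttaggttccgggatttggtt
The X box began 84, 94 and 97 bases before the start and the Y box 50, 61 and 63 bases before it, with 26, 25 and 26 bases between them. Of the members, 4 had a window among the promoters at hand, and both windows of H2-DMa lacked the pair. Their last 150 bases lie at chr17:34122682-34122831 and chr17:34125368-34125517, within the span of H2-DMa, which overlaps that of Brd2. No other window of H2-DMa was searched, so this does not show that its promoter lacks the boxes. Over 32851 promoter windows searched across 250 upstream bases on both strands, 10.9% held the X letters, 7.23% held the Y letters, and 0.0761% held the X box followed by the Y box within 8 to 40 bases. A match describes these letters and is no proof of a bound site.

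Cells with at least 600 genes and under 30% mitochondrial UMIs were kept, 10224 in the WT library and 9946 in the library labelled VISTA-KO, holding 72016854 UMIs (median 4723 a cell) and 59817786 UMIs (median 4670.5). The libraries shared 145 cell barcodes. Cells were gated on the T cell genes: CD8 cells had a UMI of Cd8a or Cd8b1 and none of Cd4, conventional CD4 cells had Cd4 and no Foxp3, and regulatory cells had both. The remaining gates needed at least 2 UMIs of Siglech, a surface lectin of plasmacytoid dendritic cells, or at least 5 UMIs of the complement genes C1qa, C1qb and C1qc. The gates held 5549 and 4350 CD8, 1768 and 3048 conventional CD4, 1528 and 1270 regulatory, 221 and 138 Siglech and 124 and 74 C1q cells in the WT library and the library labelled VISTA-KO. Vsir itself did not separate the libraries: its level in CD8 cells was 112 CPM in WT, with an interval of 108 to 115, and 111 CPM in the library labelled VISTA-KO, with one of 107 to 115. CPM is the number of UMIs of a gene per 1e+06 UMIs of all genes in the gate. Counts per gene do not show which exons were read and the deleted part is not given in the sources used here, so this check settled nothing about the label.

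The Siglech gate carried its defining markers. Summed over 10 markers of plasmacytoid dendritic cells, among them Siglech itself, it reached 14024 CPM in WT and 16166 CPM in the library labelled VISTA-KO. Cd3e stood at 401 and 210 CPM. Conventional dendritic cell markers summed to 640 and 687 CPM and macrophage markers to 395 and 461 CPM. B cell markers summed to 473 and 549 CPM, against 123 and 86.9 CPM in CD8 cells. Most of the B cell sum was Ighm, at 427 and 494 CPM, while Cd79a, Ms4a1 and Pax5 had no UMI. The C1q gate was mixed. Its 11 macrophage markers, among them the C1q genes that define the gate, summed to 3246 and 6747 CPM. However, Cd3e, a T cell receptor subunit, was at 1335 and 1139 CPM. A productive T cell receptor contig was found in 38.7% and 73.0% of the barcodes of the gate. These cells are therefore called C1q cells and not macrophages. Gates also overlapped, since 67 of the 221 WT Siglech cells passed the CD8 gate as well, 107 the conventional CD4 gate and 37 the regulatory gate, and 62, 30 and 26 of the 124 WT C1q cells did so. In the library labelled VISTA-KO the numbers were 49, 65 and 10 of 138 Siglech cells and 48, 17 and 5 of 74 C1q cells. Siglech cells were thus 67 of 5549 CD8 cells in WT and 49 of 4350 in the library labelled VISTA-KO, nearly equal shares. They were 107 of 1768 and 65 of 3048 conventional CD4 cells and 37 of 1528 and 10 of 1270 regulatory cells, lower shares in that library. The chains were lower there in each of these T cell gates. The part of Siglech cells in that difference was not tested beyond the values without them given below.

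H2-Aa, the I-A alpha chain, had the most UMIs of the chains in every gate; UMIs count molecules, so that these levels were not divided by gene length. Its level in WT was 1869 CPM in Siglech cells, 917 in C1q cells, 319 in conventional CD4 cells, 282 in regulatory cells and 177 in CD8 cells. In the library labelled VISTA-KO it was 2250, 2004, 198, 116 and 77.6 CPM in the same order. The order of the gates was thus the same in both libraries, and no neighbouring pair had overlapping counting intervals. These intervals do not measure the spread over cells, and the gates share barcodes.

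H2-Ab1, the I-A beta chain, stood at 1019 CPM in WT Siglech cells and 714 CPM in WT C1q cells. Conventional CD4 and regulatory cells, at 200 CPM (191 to 208) and 197 CPM (190 to 203), could not be ordered beyond counting error, and CD8 cells were lowest at 114 CPM. In the library labelled VISTA-KO the C1q cells came first at 1581 CPM, ahead of Siglech cells at 1360, conventional CD4 cells at 141, regulatory cells at 78.8 and CD8 cells at 48.7 CPM.

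H2-Eb1, whose protein has no I-E alpha partner in these mice, was transcribed at levels near those of the I-A beta chain. It measured 898 CPM in Siglech, 737 in C1q, 202 in regulatory, 180 in conventional CD4 and 121 in CD8 cells of WT. The library labelled VISTA-KO gave 1576 CPM in C1q, 1000 in Siglech, 118 in conventional CD4, 70.2 in regulatory and 48.5 in CD8 cells. H2-Aa took 49.4% and 48.8% of the UMIs of the chains in Siglech cells, against 38.7% and 38.8% in C1q cells.

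**Figure D1:**
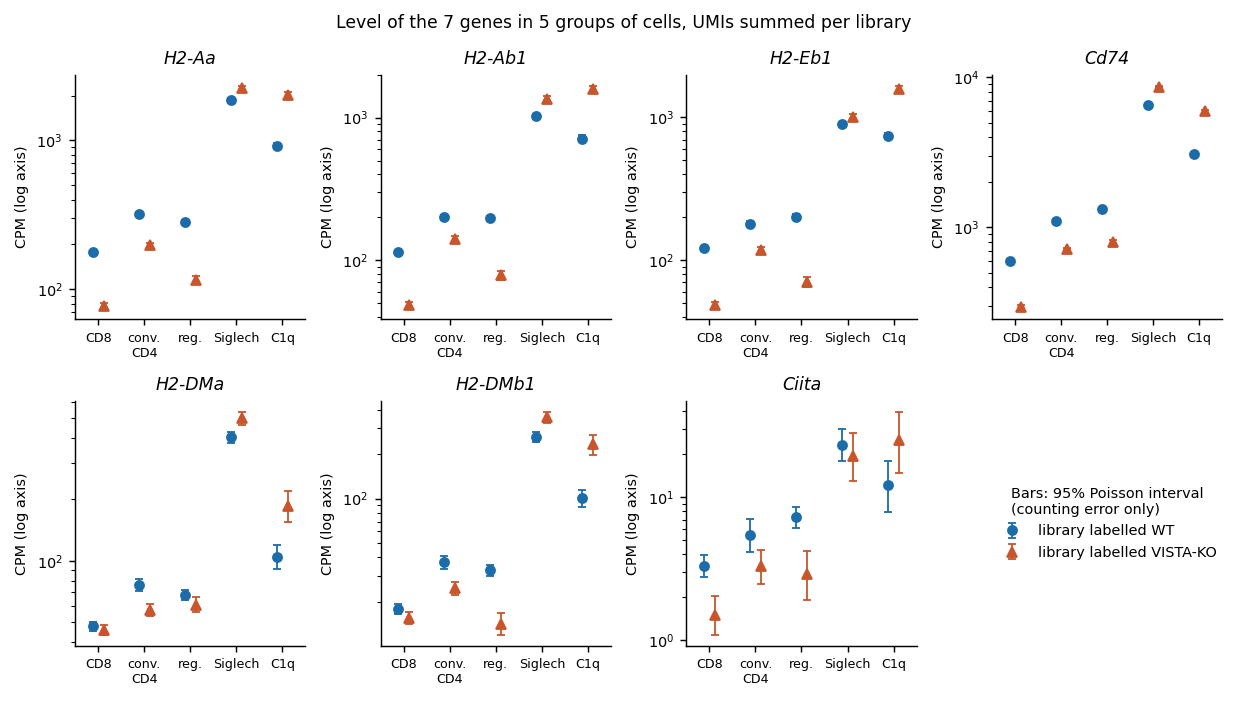
Level of each of the 7 genes in CPM (log axis) in the 5 gates, with 1 point per library and bars for the 95% Poisson interval. Siglech and C1q cells sit above the T cell gates for every member, and within the T cell gates the points of the library labelled VISTA-KO lie below those of WT for the chains and Cd74.

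Cd74, the invariant chain, was the most abundant member in all 10 combinations of gate and library. It reached 6581 and 8656 CPM in Siglech cells of WT and of the library labelled VISTA-KO, and 3071 and 5927 CPM in C1q cells. Among T cells the regulatory gate was highest, with 1331 and 804 CPM, followed by conventional CD4 cells with 1110 and 721 CPM and CD8 cells with 593 and 296 CPM.

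Of the 2 genes of the peptide exchange factor, H2-DMa behaved less like the chains. H2-DMa measured 402 and 498 CPM in Siglech cells and 104 and 185 CPM in C1q cells, and its T cell levels were 47.7 and 46.0 CPM in CD8, 76.2 and 57.4 in conventional CD4 and 67.8 and 60.9 in regulatory cells. H2-DMb1, its partner, was at 261 and 355 CPM in Siglech, 101 and 233 in C1q, 37.2 and 24.8 in conventional CD4, 32.7 and 14.2 in regulatory and 18 and 15.5 CPM in CD8 cells. Within WT the CD8 level of H2-DMa was thus 45.8% of its C1q level, against 17.3% for the summed chains and 17.8% for H2-DMb1. Set against Siglech cells of WT, the CD8 level was 11.9% for H2-DMa, near the 10.9% of the chains. In the library labelled VISTA-KO the CD8 level of H2-DMa was 9.22% of its Siglech level and 24.9% of its C1q level. The chains there were at 3.79% and 3.39%, so the likeness to the chains was seen in WT only.

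Ciita, the coactivator, was sparse everywhere. Siglech cells held 60 UMIs in WT and 28 in the library labelled VISTA-KO, or 23.4 CPM (17.9 to 30.2) and 19.6 CPM (13 to 28.3), and C1q cells held 25 and 18 UMIs, or 12.2 CPM (7.87 to 18) and 25 CPM (14.8 to 39.5). The T cell gates ranged from 1.51 CPM in CD8 cells of the library labelled VISTA-KO to 7.27 CPM in WT regulatory cells. Its Siglech and C1q intervals overlapped in both libraries. The direct ratio of Siglech over C1q cells was 1.93 (1.19 to 3.21) in WT, an interval that lies above equal levels but covers counting error only. In the library labelled VISTA-KO it was 0.783 (0.418 to 1.5).

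Set against CD8 cells of the same library, Siglech cells were at least 4-fold higher (a log2 difference of 2 or more with 5 CPM added, and at least 20 CPM in 1 of the gates) for 6 of the 7 members with a level in WT, where 5.46% of all genes were. In C1q cells 5 of 6 members passed in WT, against 1.14% of genes. In the library labelled VISTA-KO 6 of 6 passed in Siglech cells, against 6.45%, and 6 of 7 in C1q cells, against 3.18%. H2-DMb1 and Ciita were under 20 CPM in CD8 cells of both libraries and had a level only through the other gate, so they had to be higher or uncounted. No member passed in conventional CD4 or regulatory cells of either library, where 0.33% and 0.366% of genes did in WT and 0.128% and 0.738% in the other. The summed UMIs of H2-Aa, H2-Ab1 and H2-Eb1, called the class II chains from here on, were 9.21-fold higher in Siglech than in CD8 cells of WT and 26.4-fold higher in the library labelled VISTA-KO, and 5.77-fold and 29.5-fold higher in C1q cells. Conventional CD4 cells were 1.70-fold and 2.61-fold above CD8 cells, and regulatory cells 1.66-fold and 1.51-fold.

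Between the libraries, class II chains summed over all gated T cells were lower in the library labelled VISTA-KO, a difference that depended on which barcodes were counted. They measured 411 and 175 CPM in CD8 cells (ratio 0.425, interval 0.412 to 0.439), 699 and 456 CPM in conventional CD4 cells (ratio 0.653, 0.633 to 0.675) and 681 and 265 CPM in regulatory cells (ratio 0.389, 0.372 to 0.406). Siglech cells went slightly the other way, at 3786 and 4610 CPM (ratio 1.22, 1.18 to 1.26), and C1q cells more so, at 2369 and 5160 CPM (ratio 2.18, 2.09 to 2.27). The difference ended in CD8 cells once barcodes with other-type markers or without exactly 1 beta chain were left out (ratio 0.969, 0.831 to 1.13). In conventional CD4 cells it fell short of the threshold used below once barcodes of the Siglech and C1q gates were left out (208 and 168 CPM, log2 ratio -0.30). That second exclusion made the CD8 difference larger, and the beta chain rule alone left the difference in both gates. Regulatory cells stayed lower under each of these choices. With barcodes of the Siglech and C1q gates left out, 5 of 6 members were lower past that threshold in regulatory cells (median log2 ratio -1.11). The values for the other choices are given near the end.

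Member by member, a gene was counted as different where it had at least 20 CPM in 1 library and a log2 ratio, with 5 CPM added, of at least 0.5 in size. In CD8 cells 4 of the 5 members with that level were lower in the library labelled VISTA-KO, where 0.69% of the genes measured were lower and 1.08% higher: H2-Aa (log2 ratio -1.14), H2-Ab1 (-1.15), H2-Eb1 (-1.23) and Cd74 (-0.99). H2-DMa, the fifth, had a ratio of 0.964 (0.897 to 1.04). With the stricter choice of T cells described below, 2 members had a level, Cd74 alone was lower, and H2-Eb1 turned to 0.37. In conventional CD4 cells 4 of 6 were lower against 2.75% of genes (1.5% were higher), with H2-Ab1 at -0.49 and H2-DMa at -0.38 short of the threshold. Without barcodes of the Siglech and C1q gates 0 of 5 were lower, with H2-Aa at -0.41, H2-Eb1 at -0.34 and Cd74 at -0.32. In regulatory cells 5 of 6 were lower against 2.5% of genes (2.83% were higher), the largest being H2-Eb1 at -1.46 and the exception H2-DMa at -0.14. H2-DMb1, among the 5, reached 20 CPM in WT alone (32.7 and 14.2 CPM), so it could be counted only as lower.

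In Siglech cells 0 of 7 members passed in either direction, against 3.73% of genes higher and 5.31% lower. In C1q cells all 7 were higher, against 10.3% of genes higher and 9.16% lower, with log2 ratios from 0.80 for H2-DMa to 1.17 for H2-DMb1. Ciita, among the 7, reached 20 CPM only in the library where it was higher and rests on 25 and 18 UMIs, so its count is no support. The members' median log2 ratio was -1.14 in CD8, -0.54 in conventional CD4, -1.11 in regulatory, 0.31 in Siglech and 1.09 in C1q cells, while that of all genes measured lay between -0.04 and -0.01. Macrophage markers moved with the C1q values, their sum in C1q cells being 3246 CPM in WT and 6747 CPM in the library labelled VISTA-KO. These markers include C1qa, C1qb and C1qc, which define the gate, so the sum is no independent measure. The part of the markers in the result was not tested.

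The chain UMIs of T cells were concentrated in few barcodes. In the CD8 gate 91.6% of WT cells and 92.9% of cells in the library labelled VISTA-KO had no chain UMI, whereas 112 cells (2.02%) and 65 cells (1.49%) with 10 or more held 95.6% and 90.6% of the chain UMIs. In conventional CD4 cells 93 (5.26%) and 74 (2.43%) such barcodes held 96.4% and 96.8%, and in regulatory cells 77 (5.04%) and 22 (1.73%) held 96.1% and 92.2%. The highest CD8 barcode in WT had 806 chain UMIs. Fewer cells of a type and less RNA per cell cannot be told apart in the summed levels above, and the share of such barcodes was lower in the library labelled VISTA-KO in all 3 gates.

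**Figure D2:**
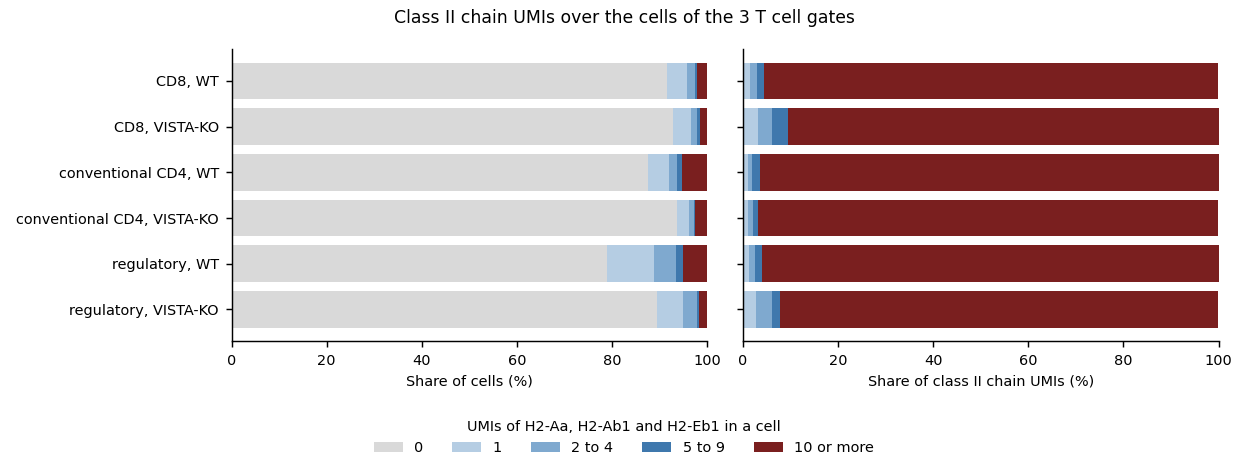
Stacked bars of the share of cells (percent) and the share of class II chain UMIs (percent) by the number of chain UMIs in a cell, for 3 T cell gates and both libraries. Most cells have none, while the cells with 10 or more, at most 5.26% of a gate, hold 90.6% to 96.8% of the chain UMIs.

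These barcodes also carried RNA of other cell types. Among the CD8 barcodes with 10 or more chain UMIs, 92.0% in WT and 92.3% in the library labelled VISTA-KO had a UMI of a marker of macrophages, dendritic cells, B cells or melanoma, as did 96.8% and 95.9% in the conventional CD4 gate and 83.1% and 90.9% in the regulatory gate. Receptor contigs were found in 36.6% and 53.8% of the CD8 barcodes with 10 or more, against 82.9% and 90.0% of those with none. In WT the former had 738 CPM of Cd3e, against 1642 in the latter, beside 957 CPM of Lyz2, a myeloid lysozyme, 613 CPM of Siglech, 545 CPM of Fscn1, a gene of mature dendritic cells, and 11610 CPM of Cd74. Conventional dendritic cell markers summed to 61.4 CPM in CD8 cells of WT and 36.4 CPM in the library labelled VISTA-KO, to 91.3 and 36.4 in conventional CD4 cells and to 75.7 and 26.0 in regulatory cells. Plasmacytoid dendritic cell markers summed to 663 and 661 CPM in CD8, 2092 and 1101 in conventional CD4 and 715 and 627 in regulatory cells, and macrophage markers to 164 and 162, 262 and 226, and 174 and 98 CPM. Melanoma markers went from 10.5 to 200 CPM in CD8, from 209 to 15.9 in conventional CD4 and from 5.63 to 194 CPM in regulatory cells. The conventional dendritic cell markers were thus lower in the library labelled VISTA-KO in all 3 gates. Plasmacytoid dendritic cell and macrophage markers were nearly equal in CD8 cells, and melanoma markers were higher in CD8 and regulatory cells. The part of each list in the difference between the libraries was not tested.

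A stricter choice of T cells was also made, after the data had been seen. It kept T cells with exactly 1 productive beta chain and no UMI of any of 30 such markers, and Siglech or C1q cells with no productive contig. Of the chain UMIs of CD8 cells, 368 of 15381 remained in WT and 316 of 4966 in the library labelled VISTA-KO. Where the chain UMIs left out came from was not tested. In the 3929 and 3258 CD8 cells left, WT gave 16.8 CPM of the chains (15.1 to 18.6) and the library labelled VISTA-KO gave 16.3 CPM (14.5 to 18.2), a ratio of 0.969 (0.831 to 1.13). The lower chain level of CD8 cells in that library was thus no longer seen, at values under the 20 CPM used as a level. Conventional CD4 cells had 16.3 and 10.9 CPM (ratio 0.671, 0.494 to 0.917) and regulatory cells 41.7 and 20.1 CPM (ratio 0.481, 0.368 to 0.626). Conventional CD4 cells left numbered 1064 of 1768 and 2215 of 3048, and regulatory cells 581 of 1528 and 746 of 1270. A smaller share was thus kept in WT, where 56.2% of gated regulatory cells had a contig, against 79.8%. The part of this unequal loss in the ratios was not tested. Cells were also split evenly into shallow, middle and deep within each library. The regulatory difference lay mostly in the middle cells, where the chains measured 82 CPM in WT (85 UMIs) and 16.2 CPM in the library labelled VISTA-KO (20 UMIs). Shallow cells had 27.3 and 20.4 CPM and deep cells 28.4 and 22 CPM. The depths were not matched, with regulatory medians of 3139, 5193 and 10999 UMIs in WT and 3397, 4917.5 and 7988 in the other library.

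The order among T cells depended on the same choice. Conventional CD4 cells were 0.969-fold and 0.671-fold of the CD8 chain level after it, instead of 1.70-fold and 2.61-fold, with counting intervals of 0.743 to 1.25 in WT and 0.534 to 0.839 in the library labelled VISTA-KO, so that in WT the gates could not be ordered. Regulatory cells were at 2.48-fold of the CD8 level in WT (2.06 to 2.98) and at 1.23-fold in the library labelled VISTA-KO, where the interval of 0.962 to 1.57 includes equal levels. Siglech cells were at 227-fold and 304-fold of the CD8 level and C1q cells at 175-fold and 566-fold. The direction of H2-Eb1 in CD8 cells turned, to 3.84 CPM in WT and 6.39 CPM in the library labelled VISTA-KO.

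**Figure D3:**
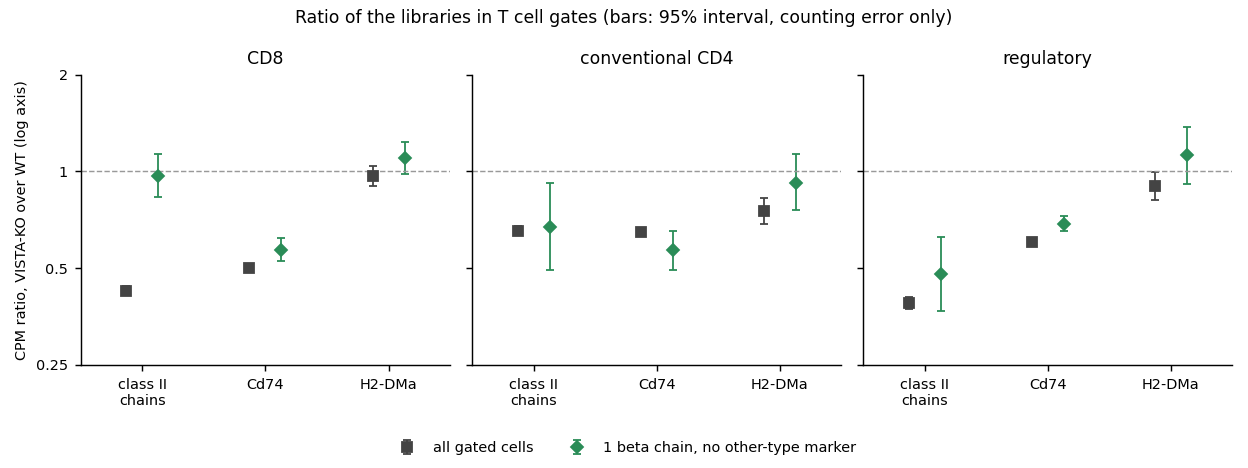
Ratio of CPM in the library labelled VISTA-KO over WT (log axis, bars for 95% counting intervals) for the class II chains, Cd74 and H2-DMa in 3 T cell gates, for all gated cells and for cells with 1 beta chain and no other-type marker. In CD8 cells the chain ratio moves from 0.425 to 0.969, whereas the Cd74 ratio is 0.499 and 0.571.

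After the stricter choice the chains were lower beyond counting error in the library labelled VISTA-KO in conventional CD4 and regulatory cells only. Cd74 was lower in all 3 T cell gates. It measured 79.6 CPM in WT and 45.4 CPM in the library labelled VISTA-KO in CD8 cells (ratio 0.571, 0.526 to 0.619), 83.2 and 47.3 CPM in conventional CD4 cells (ratio 0.568, 0.494 to 0.653) and 789 and 543 CPM in regulatory cells (ratio 0.688, 0.653 to 0.726). It was lower in the library labelled VISTA-KO in shallow, middle and deep cells of all 3 gates, split evenly by UMI depth within each library. CD8 values were 41.6 and 32.5 CPM in shallow, 33.2 and 21.1 in middle and 114 and 62.3 in deep cells. Under this choice Cd74 was the 1 member of 2 with a level that was lower past the threshold in CD8, conventional CD4 and regulatory cells, where 0.615%, 1.47% and 3.58% of genes were lower and 1.18%, 1.47% and 4.35% higher.

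Regulatory cells stood apart in Cd74. They carried 9.91-fold the CD8 level in WT and 12.0-fold in the library labelled VISTA-KO under the stricter choice. Those of them with no chain UMI among all gated cells still measured 500 and 436 CPM, against 71.2 and 38.3 CPM in such CD8 cells. Cd74 UMIs numbered 1890 and 2703 per 100 chain UMIs in regulatory cells under the stricter choice. The numbers were 473 and 279 in CD8 cells and 511 and 432 in conventional CD4 cells. Under the same choice Siglech cells had 179 and 187 and C1q cells 128 and 115. Cells outside the 5 gates held a further 22.5% and 23.0% of the chain UMIs. Among all gated cells, B cell markers summed to 281 and 410 CPM in regulatory cells. The sums were 123 and 86.9 CPM in CD8 and 137 and 132 CPM in conventional CD4 cells. Under the stricter choice they were 370 and 499, 113 and 80.7, and 94 and 111 CPM in the same order. Only 2 of the 6 listed B cell genes had a UMI under that choice. Where the Cd74 UMIs of T cells came from was not tested.

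Under the stricter choice H2-DMa also exceeded the ratio of the Siglech and C1q gates. Among all gated cells it had 10.6 and 10.8 UMIs per 100 chain UMIs in Siglech cells and 4.40 and 3.58 in C1q cells. The T cell gates then had 11.6 and 26.3 in CD8, 10.9 and 12.6 in conventional CD4 and 9.95 and 23 in regulatory cells, so in WT they were near the Siglech value. The stricter choice gave 10.9 and 10.7 in Siglech and 4.28 and 3.28 in C1q cells. Against these stood 169 and 191 in CD8, 210 and 288 in conventional CD4 and 105 and 244 in regulatory cells under the same choice. Its levels there were 28.5 and 31.2 CPM in CD8 cells (ratio 1.1, 0.978 to 1.23), 34.1 and 31.5 CPM in conventional CD4 cells and 43.9 and 49.1 CPM in regulatory cells. Brd2 overlaps its span, and the part of that overlap in these counts was not tested. Ciita also exceeded the ratio of the Siglech and C1q gates under the stricter choice, on 5 to 21 UMIs per T cell gate. It had 5.43 and 6.33 UMIs per 100 chain UMIs in CD8, 6.85 and 10.4 in conventional CD4 and 12.2 and 10.2 in regulatory cells. Siglech cells had 0.6 and 0.454 and C1q cells 0.545 and 0.499.

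To set cells of unequal depth side by side, each cell was thinned to 2000 UMIs, with those that had fewer dropped. Class II chains were seen in 4.85% and 3.96% of CD8, 8.69% and 4.39% of conventional CD4 and 10.0% and 5.09% of regulatory cells in WT and the library labelled VISTA-KO, against 78.2% and 77.4% of Siglech and 55.0% and 75.7% of C1q cells. Without thinning the shares were 8.4% and 7.08%, 12.4% and 6.36%, 21.1% and 10.5%, 85.1% and 84.8%, and 75.8% and 89.2%. Genes of macrophages that T cells should lack were seen in CD8 cells at 1.48% and 1.71% for Lyz2, 1.20% and 0.961% for Apoe and 2.36% and 2.71% for the C1q genes together, and Siglech at 1.24% and 1.06%. Median depth before thinning was 4848 and 5224.5 UMIs in CD8, 4105.5 and 4223.5 in conventional CD4, 8838.5 and 5939 in regulatory, 9181 and 9485.5 in Siglech and 13693.5 and 7592.5 in C1q cells.

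Under the stricter choice the chain share of CD8 cells came down to 1.98% (1.56 to 2.48) in WT and 1.43% (1.04 to 1.91) in the library labelled VISTA-KO. The markers of that choice are at 0 in these cells because it required it, so they give no background level. Other markers of plasmacytoid dendritic cells were left. In CD8 cells of WT and the library labelled VISTA-KO, Tcf4 was at 0.388% and 0.179% of its level in Siglech cells. Ccr9 was at 0.145% and 0.279%, and the chains were at 0.44% and 0.329%. Irf8, Bst2 and Runx2 were higher, at 2.97% and 3.03%, 6.24% and 5.15%, and 18.6% and 17.6%. Whether the chain share is expression or free RNA was not tested. The chain share of conventional CD4 cells was 2.12% and 1.31%. Regulatory cells had 5.89% (4.09 to 8.18) and 3.21% (2.05 to 4.78), above the CD8 share in both libraries. Cd74 was seen in 5.92% and 3.68% of CD8, 6.15% and 4.22% of conventional CD4 and 56.2% (52 to 60.4) and 39.8% (36.2 to 43.5) of regulatory cells. H2-DMa was seen in 5.09% and 6.44%, 7.56% and 5.72%, and 7.14% and 10.2% of the same gates.

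**Figure D4:**
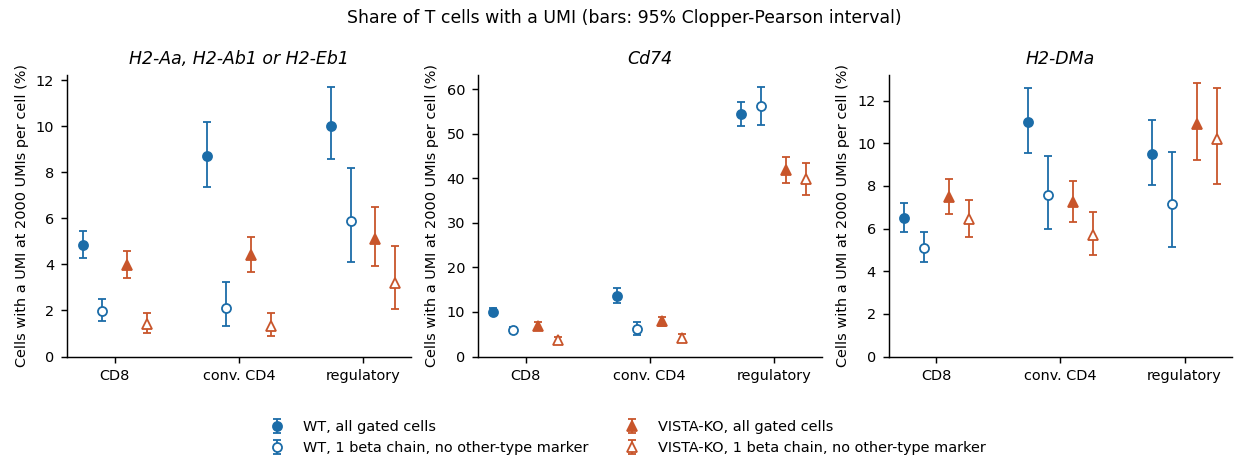
Percent of T cells with at least 1 UMI of the class II chains, Cd74 or H2-DMa after thinning to 2000 UMIs, per gate and library, with 95% Clopper-Pearson bars. Filled points are all gated cells and open points those with 1 beta chain and no other-type marker. Cd74 in regulatory cells stays at 56.2% and 39.8%, while the chains are at 1.98% and 1.43% in CD8 cells.

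Levels in CD8 cells, given as a percent of those in the Siglech or C1q gate, differed between genes. The gates share barcodes. With all gated cells the chains of CD8 cells were at 10.9% and 3.79% of their Siglech level and 17.3% and 3.39% of their C1q level, while C1qb was at 2.70% and 1.43% of its C1q level and Siglech at 2.08% and 1.48% of its Siglech level. Under the stricter choice the chains were at 0.440% and 0.329% of their Siglech level, Cd74 at 1.16% and 0.490%, and H2-DMa at 6.82% and 5.87%. In regulatory cells Cd74 was at 11.5% and 5.85%.

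In the Siglech and C1q gates the stricter choice left the direction in place. Siglech cells with no receptor contig had 3821 and 4957 CPM of the chains, with 1 of 7 members higher past the threshold (H2-Ab1, log2 ratio 0.53), against 5.3% of genes higher and 7.9% lower. C1q cells without a contig numbered 76 and 20 and had 2943 and 9220 CPM of the chains, with 7 of 7 members higher, against 16.4% of genes higher and 18.9% lower, Ciita again having passed the level only through the library where it was higher (16.1 and 46 CPM). Barcodes of the C1q gate with a contig had 571 and 2188 CPM, so the chains were higher in the library labelled VISTA-KO in both kinds of C1q barcode.

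Of 27 other genes of the pathway, from the lysosomal cathepsins to the RFX and NF-Y factors and the interferon gamma receptor, 26 were in the files. In CD8 cells 15 had a level and 0 passed the threshold, with a median log2 ratio of -0.02. In conventional CD4 cells 2 of 17 were lower, Ctsl (a cathepsin that cleaves the invariant chain; 148 and 76.5 CPM, log2 ratio -0.91) and Ifi30 (a lysosomal thiol reductase; -0.50), and 1 was higher, Ifngr2 (a receptor subunit for interferon gamma; 0.54). These shares stand beside 2.75% of all genes lower and 1.5% higher. Without barcodes of the Siglech and C1q gates 14 of the list had a level in conventional CD4 cells and 0 passed. The stricter choice of T cells likewise gave 0 of 14 there. In regulatory cells 3 of 16 were higher, among them Cxcr4 (a chemokine receptor; 0.83) and Irf1 (a factor of the interferon response that lies upstream of Ciita; 0.73), and 1 was lower, Ifi30 (-0.81), beside 2.83% of all genes higher and 2.5% lower. The factors that bind the X and Y boxes, Rfx5, Rfxap, Rfxank, Nfya, Nfyb and Nfyc, did not pass in any gate when all gated cells were counted.

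In Siglech cells 4 of 21 were higher, H2-DMb2 (the second H2-DM beta gene; 0.53), H2-Oa (a chain of the H2-DM inhibitor H2-O; 0.50), Irf1 (0.73) and Ifngr2 (0.55), and Ifngr1 was lower (-0.67), beside 3.73% of all genes higher and 5.31% lower. In C1q cells 7 of 18 were higher and 0 lower, with Ctsl at 1.53, Ifngr2 at 1.32, Ifi30 at 0.97, Ctss at 0.89, Ctsb at 0.86, Lgmn at 0.80 and Irf1 at 0.51, beside 10.3% of all genes higher and 9.16% lower. H2-Oa itself was at 80.8 and 117 CPM in Siglech cells and at 18 and 8.34 CPM in C1q cells. The list's median log2 ratio was 0.00 in conventional CD4, 0.04 in regulatory, 0.20 in Siglech and 0.36 in C1q cells.

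Likeness to the log2 level of the chains was taken over the 10 combinations of gate and library, among 7577 genes. Apart from the members, the most alike were Spi1 (the myeloid factor PU.1, r = 0.979), Ms4a6c (0.979), BC028528 (0.977), the class II gene H2-DMb2 (0.977) and P2ry6 (0.975). H2-Aa, H2-Ab1 and H2-Eb1 are parts of the chain sum, so their values of 0.996 to 0.999 were bound to be high. The other members ranged from 0.888 for H2-DMa to 0.983 for Ciita. Over the 6 T cell points alone, the most alike of 6708 genes were Npepps (0.982), Ucp2 (0.968), Rbm42 (0.965), Map1lc3a (0.962) and Srpk2 (0.961), with H2-DMa at 0.753 and Cd74 at 0.873. These are descriptions, since the points share libraries and in part the same barcodes.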

How the data were processed

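Single cells of 2 gene expression libraries, WT and VISTA-KO, and their receptor tables were used. The authors aligned reads with Cell Ranger to GRCm38 (mm10) (version 5.0.0 in the file headers) and the deposited tables hold unnormalized UMI counts for each gene in each barcode, and counts of productive receptor contigs. The labels describe a 3′ kit and the methods a 5′ kit. No normalized values were used. UMIs were summed per gate and library in Python 3.11.15 (numpy 2.4.6, scipy 1.17.1, pandas 2.3.3) and divided by the gate's total to give CPM. Ratios used log2(CPM + 5). Intervals were exact Poisson for CPM, exact conditional for ratios and Clopper-Pearson for shares. No doublet caller was run, and doublets were judged from receptor contigs and markers. Named genes were the 7 members, the 27 pathway genes where past the threshold, and the 5 most alike by correlation. The members, lists and gates were chosen with earlier results of these data known. Simulated counts with known changes were used to test the scripts. Results for some genes of the lists are not reported here.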

Additional observations from a re-analysis of the deposited data

Results flagged for a closer look

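The members' ratio between the libraries pointed opposite ways in C1q and CD8 cells, a difference that was not tested because each genotype has 1 library. The log2 ratio of the library labelled VISTA-KO over WT was 1.12 in C1q and -1.14 in CD8 cells for H2-Aa, 1.14 and -1.15 for H2-Ab1, 1.09 and -1.23 for H2-Eb1, and 0.95 and -0.99 for Cd74. C1q and CD8 cells overlapped in barcodes.

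Barcodes that failed the filters also held class II chain UMIs, 8 among 113 barcodes in WT (97.4 CPM, interval 42.1 to 192) and 15 among 139 barcodes in the library labelled VISTA-KO (151 CPM, 84.8 to 250). Cd74 stood there at 219 and 606 CPM.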

How the results depend on the processing

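No paired analysis was possible because each genotype has 1 pooled library and no replicates, so no value could be recomputed without a replicate either. Limits apart from that are the shallow counts of Ciita and the few C1q cells. Of the values on which the comparisons rest, 71 kept their value within the counting interval or within 1.5 times for counts, 109 moved and 3 turned; of the values of single members 143 kept it, 100 moved and 2 turned. The cause of these shifts was not tested.

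The chain log2 ratio of the library labelled VISTA-KO over WT, given here for CD8, conventional CD4, regulatory, Siglech and C1q cells in that order, was -1.21, -0.61, -1.35, 0.28 and 1.12. With T cells that had exactly 1 beta chain and Siglech or C1q cells without a contig it was -1.0, -1.07, -1.08, 0.38 and 1.65, with stricter gate thresholds -1.14, -0.87, -1.51, 0.37 and 1.06, with the marker rule added after seeing the data -0.03, -0.42, -0.90, 0.38 and 1.65, and as a mean of per-cell CPM -0.85, -0.98, -1.42, 0.19 and 0.86. With overlapping gates kept apart it was -2.01 in CD8 and -0.30 in conventional CD4 cells. Under the marker rule H2-Eb1 turned to 0.37 in CD8 cells and H2-DMb1 to 0.15 in conventional CD4 cells.

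The chain level relative to CD8 cells in WT, for conventional CD4, regulatory, Siglech and C1q cells, was 0.608, 1.43, 11.2 and 6.94 with gates kept apart, 1.19, 1.52, 16.2 and 12.5 with receptor contigs, 0.969, 2.48, 227 and 175 with the marker rule and 2.09, 1.88, 21.6 and 10.5 as a per-cell mean, and with stricter gates 1.74, 9.57 and 8.48 for the last 3. In the library labelled VISTA-KO it was 2.07, 2.28, 58.1 and 66.7 with gates kept apart, 1.13, 1.44, 42.9 and 79.9 with contigs, 2.05, 1.35, 27.8 and 39.7 with stricter gates, 0.671, 1.23, 304 and 566 with the marker rule, and 1.92, 1.26, 45.3 and 35 as a per-cell mean. The level of conventional CD4 cells turned below that of CD8 cells in WT with gates kept apart and in the library labelled VISTA-KO with the marker rule, and in WT with the marker rule its interval of 0.743 to 1.25 allows either order.

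The percent of WT cells with a chain UMI, with gates kept apart, receptor contigs, the marker rule, thinning to 1000 UMIs, thinning to 4000 UMIs and no thinning, was 3.37, 3.33, 1.98, 3.42, 7.07 and 8.4 in CD8, 2.87, 3.23, 2.12, 6.49, 16 and 12.4 in conventional CD4 and 7.53, 8.55, 5.89, 7.8, 15.2 and 21.1 in regulatory cells. In the library labelled VISTA-KO it was 2.46, 3.19, 1.43, 2.77, 6.09 and 7.08 in CD8 and 2.17, 2.55, 1.31, 3.14, 7.6 and 6.36 in conventional CD4 cells, and in regulatory cells 3.21 with the marker rule, 3.08 at 1000 UMIs, 8.18 at 4000 UMIs and 10.5 unthinned. Siglech cells gave 67 at 1000 UMIs and 85.1 unthinned in WT and 84.8 unthinned in the library labelled VISTA-KO, and C1q cells 43.5 and 75.8 in WT and 56.8 and 89.2 in the other.

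Genes past the threshold between the libraries numbered 220, 538, 609, 1509 and 3010 in CD8, conventional CD4, regulatory, Siglech and C1q cells with no filter on low values, and 63, 153, 196, 224 and 547 with at least 50 CPM. Low depth limits what can be said of Ciita in T cells.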

Other observations

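Cells outside the 5 gates, 1363 in WT and 1260 in the library labelled VISTA-KO, held 22.5% and 23.0% of the class II chain UMIs, at 1994 and 899 CPM, with Cd74 at 2500 and 1363 CPM. Of these cells, 32 and 31 had 10 or more chain UMIs and held 99.0% and 97.2% of the chain UMIs of the cells outside the gates. Fscn1, a gene of mature dendritic cells, was at 164 CPM in WT and 12 CPM in the library labelled VISTA-KO there, and Ccl22, a chemokine of such cells, at 29.5 and 0.358 CPM. Cells passing the Siglech or the C1q gate were 3.35% and 2.11% of all cells and held 30.2% and 47.1% of the chain UMIs.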
